A study of Mus musculus with 42 samples.

Results

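*Ccdc40* encodes a coiled-coil protein of motile cilia, and the comparison described here asks what its loss changed in the heart field of mouse embryos whose laterality was that of the wild type. It sets 5 homozygous *Ccdc40* lnks mutants in situs solitus (embryos 1_6, 2_2, 17_1, 19_6 and 22_1) against 5 wild types (7_1, 8_1, 10_1, 17_7 and 22_4), 10 of the 21 embryos in the series. The other 11 embryos are homozygous mutants, 6 with rightward looping outside situs solitus and 5 with inverted looping. All embryos were at E8.5. The lnks allele is a nonsense mutation from a chemical mutagenesis screen, kept on a background that the methods of the study write as C56Bl6J, and it was present in all tissues of the mutants. The left and the right part of the heart field, cut apart at the midline after the heart tube was removed, were sequenced as separate libraries, and here both libraries of an embryo were summed so that the level of each gene could be compared with no term for side. Sex was not balanced, with 1 female among the wild types and 3 among the situs solitus mutants, and it was a covariate.

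The situs solitus mutants were selected on measured values. The study grouped embryos by the right-minus-left differences of genes that are asymmetric in its wild types, and these 5 mutants were those placed with the wild types. That resemblance is therefore not a result. The sum over both sides was not used for the grouping, and genotype came from the sample labels, so the level of a gene in mutants against wild types was tested. Each embryo is 1 replicate, and p-values measure the spread between embryos.

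CCDC40 and its partner CCDC39 form a ruler along the microtubule doublets of the axoneme, on which inner dynein arms and the nexin-dynein regulatory complex are placed at regular distances. Without the ruler motile cilia do not beat in order. In the early embryo motile cilia beat in the pit of the node and move fluid to the left, ahead of left-sided *Nodal* signaling in the lateral plate. The heart field lies in the dorsal pericardial wall beside the foregut and supplies cells to the poles of the heart tube. In summed tissue, fewer cells of a type and less RNA per cell cannot be told apart.

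Depth was high. The 20 libraries held between 36572530 and 55958371 counts, and the sums per embryo lay between 75459217 and 104682393, with medians of 99106553 in wild types and 83082778 in mutants. After a filter on low counts 25766 of 56953 genes were tested. Levels are given in CPM, the count relative to the effective library size, and log2 fold changes as situs solitus mutants minus wild types.

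*Ccdc40* itself, on chromosome 11 (GRCm39), was lower in every mutant. Its level was 22.7, 19.8, 20.97, 20.04 and 19.4 CPM in wild types 7_1, 8_1, 10_1, 17_7 and 22_4. It was 11.2, 11.6, 13.3, 10.9 and 13.3 CPM in mutants 1_6, 2_2, 17_1, 19_6 and 22_1. The groups did not overlap, and the lowest wild type stood well above the highest mutant. The means were 20.6 ± 1.30 and 12.04 ± 1.16 CPM (SD, n = 5 each), so the mutants kept 58.5% of the wild-type level. The log2 fold change was -0.74 with a standard error of 0.09 and a 95% interval from -0.95 to -0.54. *Ccdc40* had the smallest p of all genes tested, 4.9e-06 unadjusted by edgeR's quasi-likelihood test, but its adjusted p of 0.127 did not pass 0.05. The exact permutation test of the 5 against 5 embryos gave a two-sided p of 0.00794, the smallest that this design allows and the one that every gene without overlap of the groups has.

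The same step was present on each side. On the left, *Ccdc40* ranged from 15.4 to 23.5 CPM in wild types and from 9.81 to 12.54 CPM in situs solitus mutants. On the right, it ranged from 16.1 to 26.3 CPM in wild types and from 10.6 to 14.5 CPM in mutants. Neither side showed an overlap of the groups. In the 11 other mutants the summed level lay between 11.2 and 13.7 CPM, around that of the situs solitus mutants. The difference of situs solitus mutants from these others was -0.02 on the log2 scale (adjusted p = 0.995, edgeR).

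**Figure D1:**
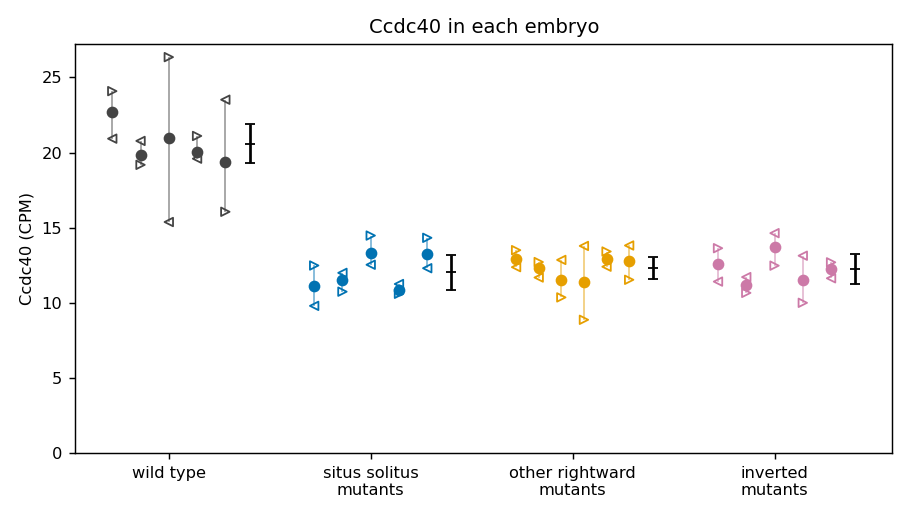
*Ccdc40* in CPM (vertical axis) in each embryo of the 4 groups. Filled circles are both sides summed, open triangles pointing left and right are the libraries of each side, and black bars are the mean and SD of the summed values. Every wild type lies above 19 CPM and each of the 16 mutants below 14 CPM in the sum.

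Of 11 genes of the ruler and the nexin-dynein regulatory complex 8 were tested, and *Ccdc40* was the 1 with an unadjusted p under 0.05. *Ccdc39* ran at 4.80, 4.61, 3.82, 5.81 and 5.18 CPM in wild types 7_1, 8_1, 10_1, 17_7 and 22_4. It ran at 5.36, 6.12, 4.78, 4.91 and 4.69 CPM in mutants 1_6, 2_2, 17_1, 19_6 and 22_1. The groups overlapped throughout, with a log2 fold change of 0.14 ± 0.14 (SE, adjusted p = 0.932, edgeR). *Gas8*, a subunit of the nexin-dynein regulatory complex, was between 38.4 and 45.2 CPM in wild types and between 39.5 and 43.8 CPM in mutants (log2 fold change -0.07, adjusted p = 0.925).

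The wider machinery of motile cilia held no called gene. Of 22 dynein arm and docking genes tested, 0 had an unadjusted p under 0.05 by edgeR, beside 5.24% of all genes, and the list's median log2 fold change was 0.01. Of 17 dynein arm assembly factors, 1 had an unadjusted p under 0.05, higher in mutants as were 2.85% of all genes, with a median of 0.01. None of 35 genes of radial spokes, central pair and inner proteins reached it, and their median was 0.03. The 10 genes tested of the ciliogenesis list, made of transcription factors and *Dnajb13*, had 0 such genes and a median of 0.04. For 33 genes of transport in primary cilia it was 0 such genes and a median of -0.001. DESeq2 called 0 genes of these 5 lists. *Foxj1*, the master regulator of motile ciliogenesis, was named after its values were seen. It spread from 0.817 to 3.09 CPM in wild types and from 0.395 to 1.85 CPM in mutants, so a change of its level smaller than this spread was not detectable.

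Across the genome the genotype effect was small against the spread of embryos. At an adjusted p under 0.05, edgeR called 0 of 25766 genes, a background of 0%. Unadjusted p-values under 0.05 numbered 1350, or 5.24% of the genes tested, of which 735 (2.85%) were higher and 615 (2.39%) lower in mutants. This split moves with scaling, since 54.4% of these genes were higher with TMM factors and 73.2% with library size alone. DESeq2, run as an alternative, called 27 genes, or 0.105% of those with an adjusted p, 12 higher and 15 lower. Of all genes tested, 226 (0.877%) had levels that did not overlap between the groups, and among the 27 genes of DESeq2 there were 9 such genes.

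The absence of calls was read with the intervals of the fold changes. Of 15222 genes at 1 CPM or more, 14304 (94.0%) had a 95% interval that lay within a change of 1 on the log2 scale in both directions. For 11125 of them (73.1%) it lay within 0.5. The median distance from the fold change to either end of its interval was 0.13 for genes at 100 CPM and over, 0.18 between 10 and 100 CPM, 0.40 between 1 and 10 CPM and 0.84 under 1 CPM. These intervals are not adjusted for the number of genes, so larger changes too could miss the adjusted threshold, as that of *Ccdc40* did. Low transcripts such as *Nodal*, between 0.0735 and 0.214 CPM in wild types, were measured with little precision.

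**Figure D2:**
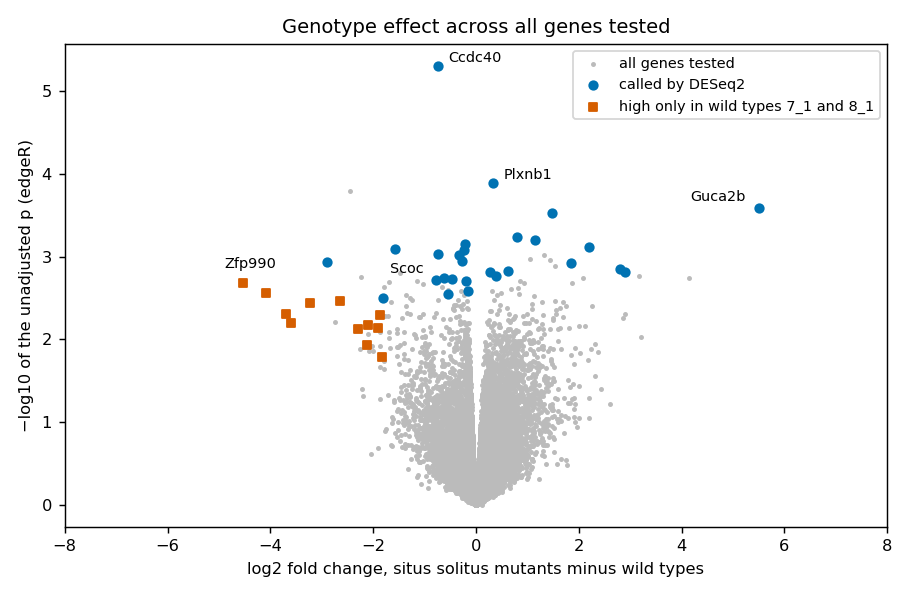
Log2 fold change (horizontal axis) against −log10 of the unadjusted p from edgeR (vertical axis) for the 25766 genes tested. Blue circles are the 27 genes called by DESeq2 and orange squares the 12 genes raised in wild types 7_1 and 8_1 alone. *Ccdc40* stands highest, and the orange squares lie at the left edge, with large fold changes and moderate p.

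Since edgeR called no gene in either direction, 10 genes of each direction are described. They are those with the smallest p among genes with a mean of at least 200 reads per embryo in the higher group. None of them was called by edgeR at an adjusted p under 0.05 (*Ccdc40* is one of the 10 lower genes). *Plxnb1*, a receptor for semaphorin 4D, was at 70.8, 75.8, 66.8, 71.3 and 69.1 CPM in wild types 7_1, 8_1, 10_1, 17_7 and 22_4. In mutants 1_6, 2_2, 17_1, 19_6 and 22_1 it was at 88.5, 95.7, 89.4, 86.5 and 81.6 CPM. All 5 mutants exceeded all 5 wild types. The log2 fold change was 0.33 ± 0.06 (SE, adjusted p = 0.905 by edgeR and 0.000314 by DESeq2). In the other 11 mutants it lay between 71.6 and 92.1 CPM, overlapping both groups, with 0.18 against wild types (adjusted p = 0.997, edgeR).

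The levels of *Arhgef5* were 10.3, 12.7, 9.67, 10.1 and 12.3 CPM in the wild types, in the same order, and 15.3, 14.9, 14.2, 14.7 and 15.3 CPM in the mutants. The mutants were close together and above each wild type (log2 fold change 0.38 ± 0.09, SE, adjusted p = 0.905 by edgeR and 0.0392 by DESeq2). The other mutants spread from 11.7 to 15.8 CPM. *Zfhx2*, a homeobox and zinc finger transcription factor gene, was between 13.1 and 14.2 CPM in wild types and between 14.97 and 18.4 CPM in mutants, again without overlap (log2 fold change 0.31, adjusted p = 0.0522 by DESeq2). The group also held *Zbtb12*, *Alyref*, *Slc35d3* and *Col9a2*, whose groups overlapped, with log2 fold changes from 0.27 to 0.82.

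*Lhx1*, a LIM homeobox gene of the intermediate mesoderm, was the lower gene with the clearest separation after *Ccdc40*. It was at 7.83, 5.51, 7.46, 7.42 and 5.23 CPM in the wild types and at 4.35, 4.12, 2.84, 4.67 and 4.03 CPM in the mutants, in the order given above. No mutant reached the lowest wild type (log2 fold change -0.77 ± 0.19, SE, adjusted p = 0.905 by edgeR and 0.0311 by DESeq2). The other mutants ranged over the whole span, from 2.96 to 9.64 CPM. The difference of situs solitus mutants from those others was -0.61 (adjusted p = 0.995, edgeR). The uncharacterized transcript *0610005C13Rik* was likewise without overlap, between 2.38 and 3.82 CPM in wild types and between 1.67 and 2.15 CPM in mutants, whereas the other mutants ran from 1.28 to 4.42 CPM. *Zfp979*, a zinc finger gene on chromosome 4, was at 16.8, 16.4, 11.6, 12.1 and 13.9 CPM in the wild types, highest in 7_1 and 8_1, and between 9.95 and 11.4 CPM in the mutants (log2 fold change -0.47, adjusted p = 0.0471 by DESeq2).

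In several of the remaining genes a single embryo stood apart from its group. *Guca2b*, which encodes the gut peptide uroguanylin, had a log2 fold change of 5.50, and this was embryo 2_2, at 10.8 CPM. The other 4 mutants were between 0.0365 and 0.184 CPM and the wild types between 0.0204 and 0.145 CPM. *Hbb-bs*, an adult beta globin, was at 79.7 CPM in 2_2, and the remaining mutants at 6.22 to 34.0 CPM overlapped the wild types at 6.92 to 19.1 CPM. *Nlrp6*, an inflammasome sensor, was at 2.99, 2.82, 4.77, 3.13 and 0.470 CPM in wild types 7_1, 8_1, 10_1, 17_7 and 22_4, and between 0.154 and 1.17 CPM in mutants. The wild type 22_4 thus sat with the mutants, and the other mutants ranged from 0.479 to 5.75 CPM.

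Of the 27 genes of DESeq2, 8 had a mean of fewer than 200 reads per embryo in the higher group. They were *Clec1a*, *Il2rb*, *Pnpla3*, *Dpt*, *Il22ra1*, *Myo1f*, *Prl8a9* and *Clvs2*. *Clec1a*, a C-type lectin gene, was the 1 among them without overlap, between 0.133 and 0.392 CPM in wild types and between 0.408 and 0.835 CPM in mutants, and the other mutants ran from 0.219 to 2.08 CPM. *Pnpla3*, a lipase gene, was at 5.997 CPM in 2_2, and the remaining mutants at 0.513 to 1.65 CPM overlapped the wild types at 0.347 to 1.53 CPM. *Snx4*, a sorting nexin gene of endosomes, was a well-measured gene without overlap, between 160.7 and 176.9 CPM in wild types and between 144.8 and 157.4 CPM in mutants (log2 fold change -0.16 ± 0.04, SE, adjusted p = 0.905 by edgeR and 0.0322 by DESeq2).

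**Figure D3:**
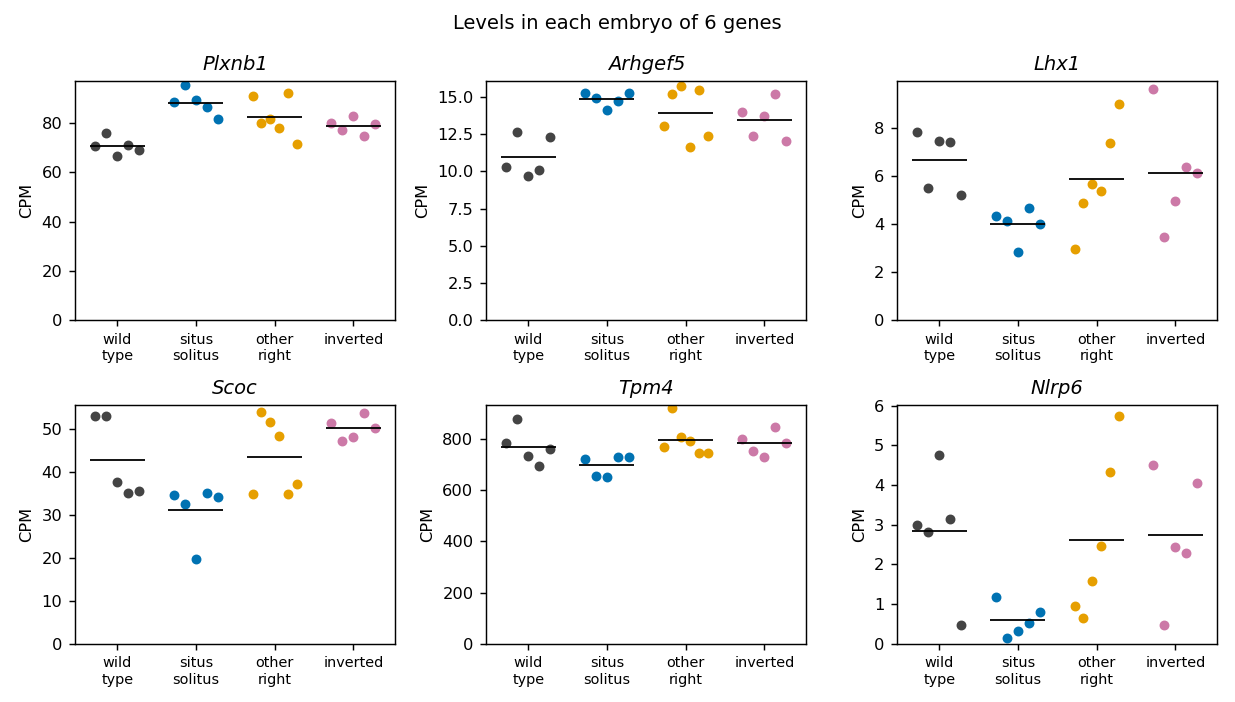
Levels in CPM (vertical axes, from 0) of *Plxnb1*, *Arhgef5*, *Lhx1*, *Scoc*, *Tpm4* and *Nlrp6* in each embryo of the 4 groups, with the mean as a line. In *Plxnb1*, *Arhgef5*, *Lhx1* and *Scoc* the situs solitus mutants do not overlap the wild types, and the other mutants overlap both groups.

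Genes of chromosome 8 were frequent among those with small p-values. Of the 27 genes called by DESeq2, 7 were on chromosome 8, namely *Tpm4*, *Niban3*, *Gcsh*, *Gpt2*, *Scoc*, *Cyb5b* and *Vps35*, and this chromosome held 1288 of the 25766 genes tested. The 7 genes lie between position 72050292, the start of *Niban3*, and position 117708549, the start of *Gcsh* (GRCm39). On chromosome 8, 111 of 1288 genes (8.62%) had an unadjusted p under 0.05 by edgeR, against 5.24% of all genes. The other autosomes and the X chromosome had between 4.24% and 6.26%. The median log2 fold change of chromosome 8 was 0.00, so it did not shift as a whole.

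The levels of *Scoc*, which encodes a small coiled-coil protein of the Golgi, fell into steps. Wild types 7_1 and 8_1 were at 52.9 and 53.01 CPM, and wild types 10_1, 17_7 and 22_4 at 37.6, 35.01 and 35.5 CPM. Mutants 1_6, 2_2, 19_6 and 22_1 were at 34.7, 32.5, 34.97 and 34.2 CPM, beside the lower wild types, and mutant 17_1 at 19.6 CPM. The lack of overlap between the groups rested on a difference of less than 1 CPM. The log2 fold change was -0.62 ± 0.15 (SE, adjusted p = 0.905 by edgeR and 0.0259 by DESeq2). The 5 inverted mutants were all on the upper step, between 47.0 and 53.7 CPM, and the 6 other rightward mutants were on both, between 34.8 and 53.8 CPM.

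*Tpm4*, a tropomyosin of non-muscle actin filaments, was at 785, 879, 734, 695 and 762 CPM in wild types 7_1, 8_1, 10_1, 17_7 and 22_4. It was at 723, 654, 654, 729 and 732 CPM in mutants 1_6, 2_2, 17_1, 19_6 and 22_1. The change was small (log2 fold change -0.22 ± 0.05, SE, adjusted p = 0.00772 by DESeq2), and the wild type 17_7 lay among the mutants. *Gpt2*, a mitochondrial alanine aminotransferase, was between 47.3 and 57.1 CPM in wild types and between 38.0 and 51.3 CPM in mutants. *Gcsh*, of the glycine cleavage system, was between 151 and 172 CPM in wild types and between 127 and 154 CPM in mutants. *Niban3* ran the other way, between 2.83 and 5.78 CPM in wild types and between 5.11 and 7.62 CPM in mutants. The log2 fold changes of these genes were smaller without the sex covariate, at -0.14 for *Tpm4*, -0.24 for *Gpt2* (from -0.33), -0.17 for *Gcsh* (from -0.24), 0.59 for *Niban3* (from 0.80) and -0.46 for *Scoc*. Without wild types 7_1 and 8_1 as well as the sex covariate they were -0.07, -0.15, -0.11, 0.36 and -0.21. With all 16 mutants against the wild types, those of *Tpm4*, *Gpt2*, *Gcsh* and *Scoc* were between -0.05 and -0.01, and that of *Niban3* was 0.12.

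The share on chromosome 8 was above that of all genes in 25 of 27 alternatives. Among them was leaving out any single embryo, as in 8.83% against 3.51% without 2_2 and 6.30% against 4.07% without 7_1. It was 8.38% against 5.24% with all 21 embryos in a single fit and 5.75% against 4.74% without the sex covariate. In the other 2 alternatives it was below that of all genes. Without both 7_1 and 8_1, and with no sex term since 8_1 is the sole female wild type, 40 of 1327 genes of chromosome 8 (3.01%) had an unadjusted p under 0.05, against 3.60% of all genes, and with all 16 mutants against the wild types it was 3.57% against 4.53%. Against the other 11 mutants, the situs solitus mutants had 9.69% of chromosome 8 genes under this p, against 4.43% of all genes. In the other 11 mutants against wild types it was 3.19% against 3.96%. These comparisons share embryos, so they are not independent of each other.

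The same 2 wild types stood apart in a set of genes spread over the genome. The levels of all autosomal genes were searched for steps, after such genes had been noticed, by a gap of more than 2 on the log2 scale with at least 2 of the 10 embryos on each side and a highest level above 1 CPM. There were 47 genes with such a step, in 18 different splits of the embryos. The most frequent split had 7_1 and 8_1 high and the other 8 embryos low, with 12 genes on 8 chromosomes, 8 of them annotated as pseudogenes. In all 12, each of the other 19 embryos of the series was below 7_1 and 8_1.

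*Zfp990*, a KRAB zinc finger gene on chromosome 4, was at 9.30 and 10.4 CPM in 7_1 and 8_1. The other 3 wild types lay between 0.205 and 0.306 CPM and the situs solitus mutants between 0.132 and 0.368 CPM. *Eno1b*, a copy of the glycolytic enolase *Eno1*, was at 306.8 and 310.5 CPM in 7_1 and 8_1, and between 24.6 and 35.1 CPM in the other 8 embryos. *Gm4735*, a transcribed processed pseudogene, was at 210.7 and 219.1 CPM in this pair, and between 5.10 and 8.28 CPM in the others. Retrocopies share sequence with their source genes, and how reads were assigned between them is not stated, so their levels are uncertain.

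Of these 12 genes, 10 were called in an alternative comparison. When all 16 mutants were compared with the 5 wild types, edgeR called 11 genes, all lower in mutants. *Ccdc40* was one of them, and in the 10 others (*Zfp990*, *Gm4864*, *Gm4735*, *Gm6724*, *Gm6594*, *Eno1b*, *Gm5898*, *Hdac1-ps*, *Gm5824* and *Nudc-ps1*) the 2 highest of the 21 embryos were 7_1 and 8_1. In the main comparison their log2 fold changes ran from -4.53 to -1.90, with adjusted p = 0.905 for each (edgeR).

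**Figure D4:**
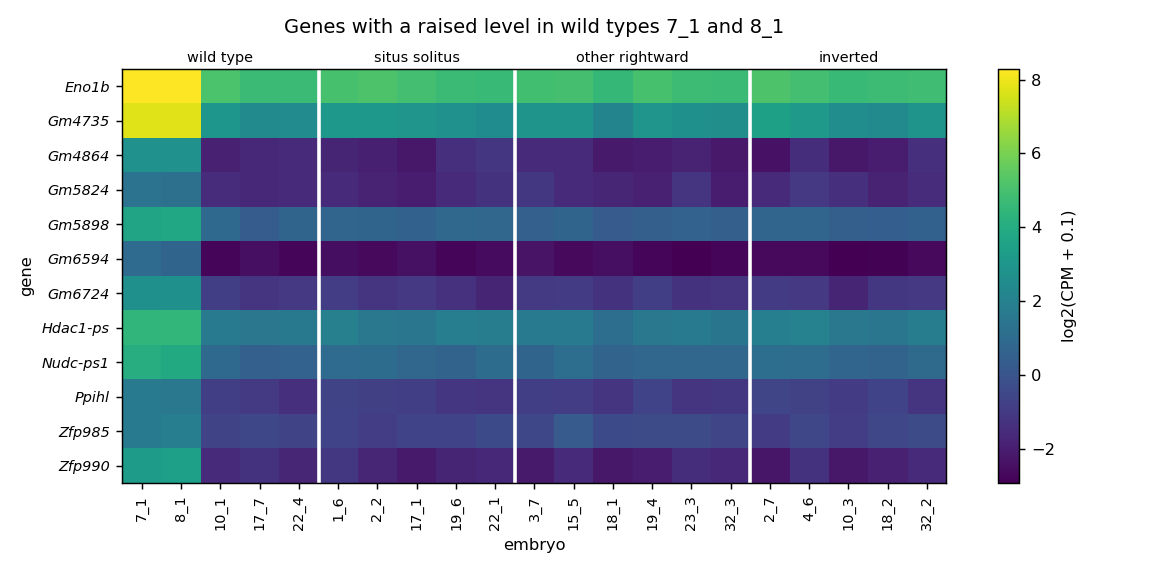
Level as log2(CPM + 0.1), by colour, of the 12 genes (rows) with a raised level in wild types 7_1 and 8_1, in each of the 21 embryos (columns), with white lines between groups. The first 2 columns are brighter in every row, and the other 3 wild types lie with the mutants.

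Among the other steps, 3 pseudogenes were high in mutants 1_6 and 2_2 and low in all 5 wild types. *Rpl15-ps6*, a processed pseudogene of a ribosomal protein gene, was between 22.1 and 24.8 CPM in these mutants and between 1.55 and 2.85 CPM in the other 8 embryos (log2 fold change 2.18, adjusted p = 0.905, edgeR). *Gm15801* and *Gm8420* had log2 fold changes of 2.23 and 1.89 and the same adjusted p. Among the other 11 mutants *Rpl15-ps6*, *Gm15801* and *Gm8420* reached 25.4, 0.459 and 1.5 CPM, with medians of 2.36, 0.258 and 0.252 CPM. The steps named next had both genotypes on the upper and on the lower level. *Tmem87a*, a Golgi protein gene on chromosome 2, was at 36.5 CPM in wild type 7_1, at 70.8 and 37.2 CPM in mutants 1_6 and 2_2 and between 5.86 and 8.57 CPM in the other 7 embryos. *Rbm45*, which encodes an RNA-binding protein, was between 35.4 and 39.9 CPM in 7_1, 22_4, 1_6, 19_6 and 22_1 and between 3.76 and 4.998 CPM in the other 5. *Trim21*, *Tsku* and the globin pseudogene *Hbb-bh0*, all on chromosome 7, were high in wild type 10_1 and mutant 2_2 among these 10 embryos, and reached 4.01, 31.6 and 11.6 CPM among the other 11 mutants. A further 4 genes were low in wild type 8_1 and mutant 22_1. Among them, *Hes3*, which encodes a transcriptional repressor in neural progenitors, was at 0.102 CPM in wild type 8_1 and 0 in mutant 22_1. It was at 2.02 to 29.0 CPM in the other 8, and *Pou3f2*, *Fam181a* and *Btbd17* shared this split. By counting error alone, a count of 0 allows up to 3 counts.

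Genes around *Ccdc40* on chromosome 11 were described as well. Within 5 Mb of its start, 6 of 216 other genes tested (2.78%) had an unadjusted p under 0.05, 2 higher and 4 lower in mutants, with a median log2 fold change of 0.01. Within 20 Mb there were 17 of 487 (3.49%), and over all genes the share was 5.24%. edgeR called 0 of these genes, and DESeq2 called *Alyref*, an mRNA export adaptor 1.36 Mb away. *Alyref* was at 35.05 to 41.8 CPM in wild types and at 36.7 to 51.2 CPM in mutants, where 2_2 and 17_1 were high at 51.2 and 48.6 CPM. *Fn3krp*, 2.19 Mb away and named after its values were seen, was at 15.7 and 15.2 CPM in wild types 7_1 and 8_1 and between 2.66 and 3.75 CPM in the other 8 embryos. Among the other mutants it took both levels, from 2.68 to 16.9 CPM.

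The pathway downstream of the node showed no called gene. Of 23 tested genes of the NODAL pathway and left-right organizer, 3 had an unadjusted p under 0.05 and were higher in mutants, 2 were lower, beside 2.85% and 2.39% of all genes, and the median log2 fold change was 0.01, against 0.01 over all genes. The co-receptor gene *Cfc1* was between 2.10 and 5.68 CPM in wild types and between 1.02 and 5.19 CPM in mutants, with 2_2 lowest.

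*Lefty2*, a secreted NODAL inhibitor, was named after its values were seen. It was at 0.446, 1.37, 0.613, 0.760 and 0.892 CPM in the wild types and at 1.80, 2.70, 0.714, 3.78 and 1.53 CPM in the mutants, in the order given above. Mutant 17_1 lay within the wild types and the other 4 above them (log2 fold change 1.13 with a 95% interval from 0.26 to 1.99, adjusted p = 0.905, edgeR). The SMAD transducers overlapped between the groups. *Smad2* ranged from 70.8 to 78.2 CPM in wild types and from 66.1 to 77.5 CPM in mutants, and *Smad3* from 83.2 to 92.7 CPM and from 80.7 to 100.2 CPM. The receptors *Acvr1b*, *Acvr2a* and *Acvr2b* had log2 fold changes of 0.01, 0.08 and 0.22. The BMP and WNT lists had medians of -0.05 over 29 genes and 0.03 over 64 genes, with 3 genes lower and 2 genes higher in mutants at an unadjusted p under 0.05, beside 2.39% lower and 2.85% higher among all genes.

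Gene lists of the tissues in and around the dissection were described by counts and medians. edgeR called 0 of their members, whereas DESeq2 called *Alx1*, in the neural crest list. *Alx1*, a homeobox gene of head mesenchyme, was between 22.4 and 34.8 CPM in wild types, at 12.4 CPM in 2_2 and between 18.6 and 32.4 CPM in the other mutants. With all 10 embryos, the second heart field and pharyngeal list had the highest median. Of its 20 genes, 19 had a positive log2 fold change, 5 had an unadjusted p under 0.05, all higher in mutants, where 2.85% of all genes were, and the median was 0.33. Its summed level lay between 519 and 782 CPM in wild types and between 715 and 866 CPM in situs solitus mutants, which overlapped. *Tbx1*, a T-box gene of the pharyngeal arches, was at 32.6, 22.3, 19.7, 38.0 and 38.5 CPM in the wild types and at 31.4, 41.5, 47.7, 41.6 and 50.2 CPM in the mutants. *Fgf8*, a growth factor of the same tissue, was between 22.2 and 33.6 CPM in wild types and between 31.6 and 63.3 CPM in mutants, highest in 2_2. Both had adjusted p = 0.905 (edgeR), and both were named after their values were seen. The members of the list with the highest level, *Mef2c* and *Nkx2-5*, had log2 fold changes of -0.07 and 0.07. Without 2_2, 17 of these 19 genes remained positive, the median was 0.16, and 4 other lists had a higher one, led by primitive blood at 0.27.

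At the other end stood yolk sac visceral endoderm, an extraembryonic tissue next to the dissected field. None of its 19 genes had a positive log2 fold change, 2 had an unadjusted p under 0.05 and were lower in mutants, where 2.39% of all genes were, and the median was -0.76. Its summed level was between 569.9 and 1206 CPM in wild types. In mutants it was 133 CPM in 2_2 and between 707 and 866 CPM in the other 4. Without 2_2 the median was -0.33. *Apoa1*, the apolipoprotein of high-density lipoprotein, named after its values were seen, was at 4.15 CPM in 2_2 and between 56.2 and 100.3 CPM in the other mutants, against 42.6 to 157.8 CPM in wild types.

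The HOX list had 6 positive genes of 28 and a median of -0.46, with 6 genes at an unadjusted p under 0.05, all lower in mutants, where 2.39% of all genes were. *Hoxb6*, a gene of the trunk, was named after its values were seen. It was at 0.759 CPM in 2_2 and between 3.14 and 5.54 CPM in the other mutants, against 3.55 to 11.2 CPM in wild types. Without 2_2 the median of the list was -0.23. Lateral plate and extraembryonic mesoderm had a median of -0.28, and -0.23 without 2_2. The 8 genes of the laterality signature that the study names had a median of -0.29 in level (-0.17 without 2_2 and -0.59 without 8_1). No test is given because the study chose these genes by comparing its laterality groups, which were formed from genes asymmetric in wild types.

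The medians of several lists turned on single embryos, 9 of 35 changing sign without mutant 2_2 and 12 without wild type 8_1. Heart tube muscle had a median of -0.25 over 25 genes, 0.09 without 2_2 and -0.42 without 8_1, and its summed level was 1394 CPM in 2_2 against 4023 to 7288 CPM in the other mutants and 2901 to 5607 CPM in wild types. *Actc1*, cardiac actin, was at 119 CPM in 2_2 and between 633 and 1178 CPM in the other mutants. The cardiopulmonary, sinus venosus and proepicardial list had a median of -0.21, 0.05 without 2_2 and -0.40 without 8_1. Without 2_2 neural crest went from 0.10 to -0.04, and p53 targets from 0.03 to -0.08. Without the sex covariate the median was 0.14 for heart tube muscle, 0.02 for the cardiopulmonary list and -0.12 for neural crest. Whether the tissue content of 2_2 had a part in these values was not tested.

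**Figure D5:**
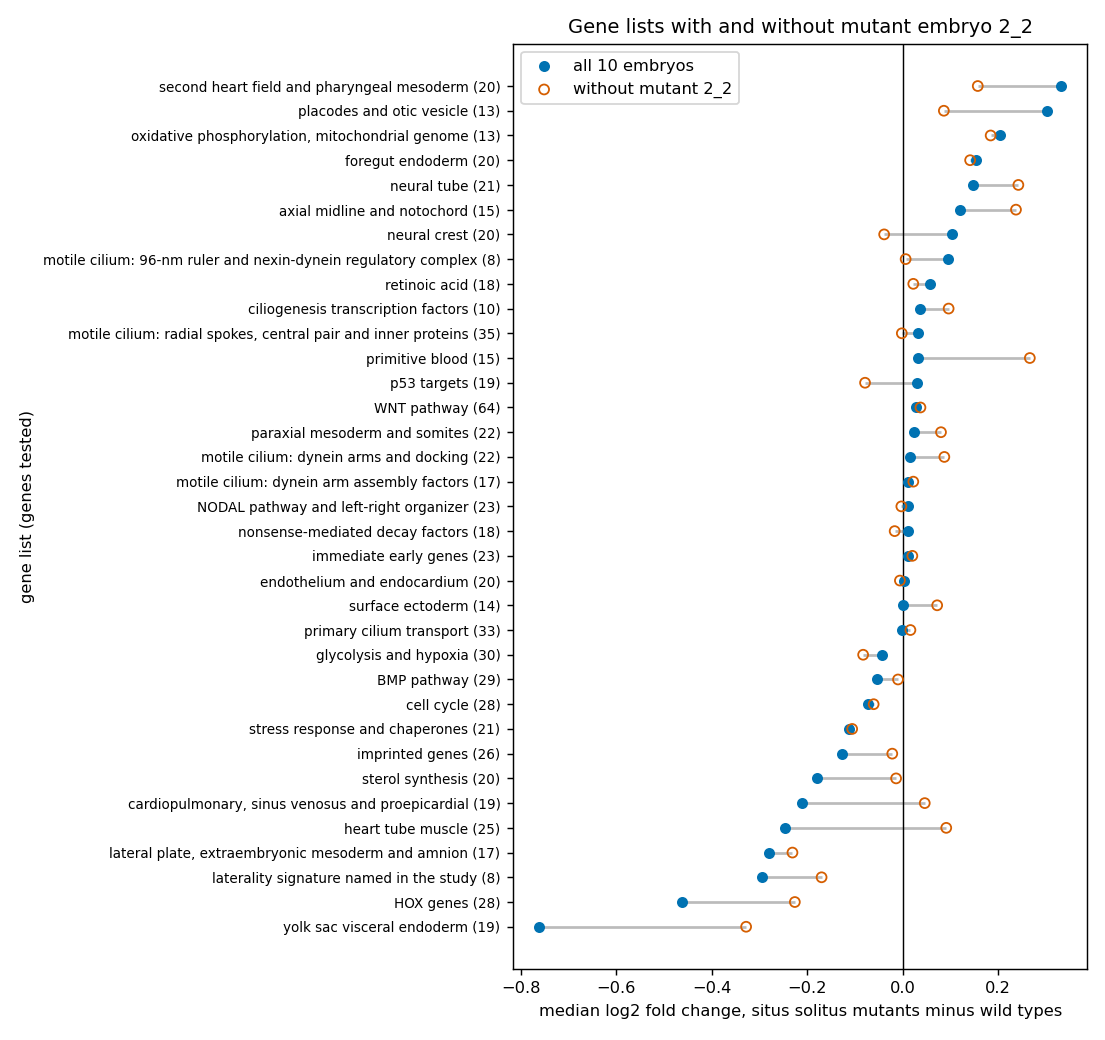
Median log2 fold change (horizontal axis) of each of 35 gene lists (rows, with the number of genes tested), with all 10 embryos (blue) and without mutant 2_2 (open orange). The second heart field list stays above 0 and yolk sac visceral endoderm below 0 in both, whereas heart tube muscle crosses 0.

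The neural tube list depended on the sex term, with a median of 0.15 with it, -0.49 without it, -0.20 in males alone and -0.21 without wild type 8_1. Its summed level was lowest in wild type 8_1 and mutant 22_1, both female, at 362 and 345 CPM, and the range was up to 687 CPM in wild types and 472 CPM in mutants. As 8_1 is the sole female wild type, sex and this embryo cannot be told apart in wild types.

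The 13 protein genes of the mitochondrial genome, which encode subunits of the respiratory chain, all had a positive log2 fold change, with a median of 0.20 (0.18 without 2_2). Of these, *mt-Co2*, *mt-Co3*, *mt-Atp6*, *mt-Atp8* and *mt-Nd4l* had means under 1 CPM in both groups, where fold changes are measured with little precision. The summed level of the 13 genes was between 3680 and 3831 CPM in wild types and between 3858 and 4426 CPM in mutants. These ranges did not overlap, with a gap under 30 CPM. Among the 35 lists, the sums of the ruler and nexin-dynein regulatory complex list, which holds *Ccdc40*, were also without overlap. Those of every other list overlapped. An unadjusted p under 0.05 was found for 4 of the 13 mitochondrial genes, all higher in mutants, where 2.85% of all genes were, and none was called. *mt-Co2*, with means of 0.31 CPM in wild types and 0.48 CPM in mutants, was among these 4. *mt-Cytb* was between 1632 and 1827 CPM in wild types and between 1799 and 1984 CPM in mutants. Factors of nonsense-mediated decay, the pathway that removes transcripts with early stop codons, had a median of 0.01 over 18 genes. *Upf1* on chromosome 8, its core helicase, had a log2 fold change of -0.39 (adjusted p = 0.905, edgeR), lowest in 17_1 and between 24.7 and 26.04 CPM in the other mutants, against 23.5 to 33.4 CPM in wild types.

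The remaining lists had medians between -0.18 and 0.30. Endothelium and endocardium had a median of 0.00, foregut endoderm 0.15, primitive blood 0.03, paraxial mesoderm 0.02, surface ectoderm 0.00, placodes 0.30 (0.09 without 2_2), axial midline 0.12 and retinoic acid 0.06. Without wild type 8_1 the median was -0.16 for axial midline, -0.14 for primitive blood, -0.22 for paraxial mesoderm and -0.06 for retinoic acid, and without 2_2 that of primitive blood was 0.27. Cell cycle genes had a median of -0.07, glycolysis and hypoxia -0.04, stress response and chaperones -0.11, sterol synthesis -0.18 (-0.01 without 2_2), imprinted genes -0.13 (-0.02 without 2_2 and also without the sex covariate) and immediate early genes 0.01.

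The other 11 mutants gave the size of the genotype effect outside situs solitus. Against the same wild types edgeR called 1 of 27007 genes (0.0037%), *Ccdc40*, with a log2 fold change of -0.74 and an adjusted p of 1.26e-05. DESeq2 called this gene and *Zfp865*. The second heart field list had a median of 0.09 in this comparison and yolk sac visceral endoderm -0.01, beside 0.33 and -0.76 in situs solitus, and both comparisons share the wild types. Between situs solitus mutants and the other 11 mutants directly, edgeR called 0 of 26985 genes (0%), and 1195 had an unadjusted p under 0.05. DESeq2 called 15 genes there, 7 of them on chromosome 8.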

How the data were processed

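Paired left and right heart fields of E8.5 mouse embryos were sequenced. The authors trimmed adapters, removed duplicates, aligned reads to GRCm39 with STAR, counted them with featureCounts (Subread 2.0.6, from the submitters' processing notes) and deposited raw read counts for 56953 genes. The strand setting is not stated. Names came from the GENCODE annotation of GRCm39 (56310 identifiers matched).

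Both libraries of an embryo were summed. Genes passed filterByExpr (min.prop 0.2, large.n 50, min.count 5, min.total.count 10) and were tested by edgeR 4.0.16 (quasi-likelihood, TMM, sex as a covariate, R 4.3.3), with Benjamini-Hochberg adjustment. DESeq2 1.42.0, limma 3.58.1, other scalings, filters, sample sets and leaving out each embryo were alternatives. Newer quasi-dispersions, leaving out 7_1 and 8_1 and a block by embryo name were chosen after seeing the data. Scripts were tested on simulated data. CPM used TMM factors of all 21 embryos, with 0.1 added on the log scale. Exact permutation tests were two-sided.

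Members and gene lists were chosen with earlier results of these data known. Named were *Ccdc40*, *Ccdc39*, the 10 genes per direction with the smallest p and at least 200 reads, and called or highest members of 35 lists. A result on a withheld item is not reported here.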

Additional observations from a re-analysis of the deposited data

Results flagged for a closer look

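Of the 32 genes described for the main comparison, each group of 5 embryos was searched for a single embryo far from the others on the log2 scale (gap over range above 0.71), which chance gives in about 1 in 20 groups, and 5 of 64 groups had one. *Guca2b* was at 10.8 CPM in mutant 2_2, and the other situs solitus mutants were between 0.0365 and 0.184 CPM. *Nlrp6* was at 0.470 CPM in wild type 22_4, and the other wild types were between 2.82 and 4.77 CPM. *Scoc* was at 19.6 CPM in mutant 17_1, and the other mutants were between 32.5 and 34.97 CPM. *Dpt* was at 0.184 CPM in wild type 8_1, and the other wild types were between 0.588 and 0.760 CPM. *Snx4* was at 177 CPM in wild type 8_1, and the other wild types were between 160.7 and 165.2 CPM.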

How the results depend on the processing

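For situs solitus mutants against wild types the count of called genes, 0 by edgeR, was 27 with DESeq2, 1 without the sex covariate, 1 with all 21 embryos in a single fit, 11 with all 16 mutants against the wild types and 2 with newer quasi-dispersions, *Ccdc40* and the long non-coding RNA gene *Gm13490*. Leaving out each embryo in turn gave between 0 and 1 genes. The gene called without mutant 17_1 was *Guca2b*, with an adjusted p of 0.00802 and a log2 fold change of 6.37 that rests on embryo 2_2. The count was 0 under the other alternatives, among them males alone, either side alone, limma over 20 libraries and leaving out wild types 7_1 and 8_1. For situs solitus mutants against the other 11 mutants DESeq2 called 15 genes, and for those others against wild types 2.

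*Ccdc40* had the same direction under all 27 alternatives, between -0.80 and -0.57 on the log2 scale. It passed an adjusted p of 0.05 in 5 of them, with log2 fold changes of -0.75 (DESeq2), -0.77 (no sex covariate), -0.76 (all 21 embryos), -0.74 (all 16 mutants) and -0.75 (newer quasi-dispersions). Without each embryo in turn the fold change ranged from -0.80 to -0.69 and its adjusted p from 0.113 to 0.861. Of the 32 genes followed, 5 changed direction, all under the block described next and under no other alternative. The cause of the difference between edgeR and DESeq2 was not tested.

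The labels give no litters, but 17_1 and 17_7, and 22_1 and 22_4, share the first number of their names, which the labels do not explain. With this number as a block over these 4 embryos and no sex covariate, a fit chosen after seeing the data, edgeR called 0 genes and 1142 had an unadjusted p under 0.05. *Ccdc40* was at -0.57 (adjusted p = 0.561), and *Ccdc39* (-0.21), *Hbb-bs* (-0.20), *Pnpla3* (-0.42), *Dpt* (-0.089) and *Alx1* (0.10) reversed their direction, none of them past the threshold. Depth limits low genes, and 5 embryos per group with unequal sexes limit every call.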
